A study of Mus musculus with 4 samples.

Results

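Fatty acid oxidation in mitochondria and peroxisomes was followed through 31 genes, taken as every non-control array probe whose gene name was one of the 31 symbols or an older synonym of one. The rule found all 31 genes, 31 of the 21392 genes tested and 45 of the 41174 probes on the array. Eci1 carries its older name Dci in the files, and synonym matches whose accessions belong to other genes were left out. The genes were set apart by role: 6 of the carnitine shuttle, 14 mitochondrial enzymes, 4 peroxisomal enzymes and 7 regulators.

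The cells were CD45-, that is, depleted of leukocytes, and came from lymph nodes of wild-type C57BL/6NCrl mice; both groups share this strain, and no treatment is given in the labels. The mesenteric lymph node (mLN), on the drainage of the gut, supplied one group and the peripheral lymph node (pLN) the other. Each node was sampled in 2 experiments, giving 4 one-colour arrays, 2 per node and 1 of each node in each experiment. Nodes were digested with collagenase, CD45- cells were separated magnetically to a mean purity of 97.4% ± 2.0 for mLN and 97.5% ± 2.2 for pLN as the labels state, and 80 ng of RNA was amplified in a single round. The labels do not give the number of mice, whether the experiments used separate mice, or which peripheral nodes were taken, and a p-value therefore reflects only how far these samples spread, which may be technical. The cells are a mixture, and in such bulk samples fewer cells of a type cannot be told apart from less RNA per cell.

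Fatty acids enter the mitochondrion as carnitine esters: Cpt1 on the outer membrane makes them, the carrier Slc25a20 moves them inward and Cpt2 on the inner membrane turns them back into acyl-CoA. Each round of β-oxidation then runs through an acyl-CoA dehydrogenase, an enoyl-CoA hydratase, a hydroxyacyl-CoA dehydrogenase and a thiolase, with electrons passed on by the electron transfer flavoprotein. Peroxisomes shorten very long and branched fatty acids with their own set of enzymes. PPARs and their coactivators control many of these genes, and the Pdk kinases inhibit pyruvate dehydrogenase. In lymph nodes, stromal cells include fibroblastic reticular, endothelial and contractile cells, and nodes lie embedded in fat.

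Levels are given as the processed signal divided by the 75th percentile of that array, so a level of 1 is the array's 75th percentile, which was 1686 to 1741 units of processed signal. Such levels compare arrays for 1 gene, not genes with one another. Of the probes, 74.0% to 81.1% were well above background by array and 0 were saturated. The 7 fibroblastic reticular markers were well above background on all 4 arrays, with a summed level of 331.0 and 406.8 in pLN and 318.9 and 463.8 in mLN. Of 11 leukocyte markers, Ptprc, which encodes CD45, was at 0.294 to 0.402. Leukocyte signal was present: the 11 summed to 11.3 and 6.75 in pLN and 7.12 and 5.31 in mLN. Most of this came from Lyz2, at 9.59 and 5.21 in pLN and 5.28 and 3.39 in mLN. Of the 11, 6 were higher and 2 lower on both mLN arrays. Markers of other cell types also gave signal: 12 of 12 tested pancreatic acinar markers were higher on both mLN arrays than on both pLN arrays, with summed levels of 1170 and 420.5 in mLN against 24.6 and 1.27 in pLN. For mesothelium this held for 8 of 10 markers, with summed levels of 112.7 and 77.1 in mLN against 39.2 and 36.4 in pLN. Most of the pLN sums came from Gpm6a (21.8 and 21.0), which, like Krt8, overlapped between nodes. Upk3b, 1 of 6 that passed the test (limma adjusted p below 0.05), was at 0.0106 and 0.0117 in pLN and 9.28 and 8.27 in mLN. Of 5 smooth muscle and pericyte markers, 4 were higher on both mLN arrays, with summed levels of 167.1 and 166.5 in mLN against 100.9 and 121.8 in pLN. The remaining one, Rgs5, was lower on both mLN arrays, at 6.64 and 7.60 in pLN and 3.79 and 5.37 in mLN. Of 11 epithelial and mammary markers, 7 were lower on both mLN arrays, with summed levels of 1.86 and 1.71 in mLN against 6.21 and 14.0 in pLN. Csn2 went the other way, at 0.0346 and 0.0309 in pLN and 0.677 and 0.667 in mLN (limma adjusted p = 0.00697). Over all genes tested, 20.6% were higher and 25.0% lower on both mLN arrays. Of 13 tested adipocyte markers 10 were lower in mLN on average (all genes 11914 of 21392). Both mLN arrays were lower for 5 of them and higher for 2, Plin1 and Dio2, and the nodes overlapped for 6. The summed levels, 236.2 and 174.2 in pLN against 213.7 and 125.2 in mLN, came mostly from Fabp4, which overlapped between nodes. The adipocyte genes Lep and Elovl3 were not well above background on both arrays of either node and were not tested.

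Sequences upstream of the start are shown for Pdk4, Cpt1a and Ech1, the members with the largest differences in the same direction in both experiments among those for which a sequence could be shown here. They are RefSeq sequences on GRCm38.p6, 250 bases before the annotated start, 5′ to 3′ on the gene's strand. Pdk4 lies on the minus strand at chr6:5496279-5496528, Cpt1a on the plus strand at chr19:3323051-3323300 and Ech1 on the plus strand at chr7:28825088-28825337. Capitals mark matches, on either strand, to the motifs described after the sequences.
Pdk4: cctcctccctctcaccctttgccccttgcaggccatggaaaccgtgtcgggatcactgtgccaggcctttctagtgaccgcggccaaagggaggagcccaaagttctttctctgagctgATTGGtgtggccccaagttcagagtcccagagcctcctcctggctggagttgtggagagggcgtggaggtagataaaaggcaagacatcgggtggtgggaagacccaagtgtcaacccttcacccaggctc
Cpt1a: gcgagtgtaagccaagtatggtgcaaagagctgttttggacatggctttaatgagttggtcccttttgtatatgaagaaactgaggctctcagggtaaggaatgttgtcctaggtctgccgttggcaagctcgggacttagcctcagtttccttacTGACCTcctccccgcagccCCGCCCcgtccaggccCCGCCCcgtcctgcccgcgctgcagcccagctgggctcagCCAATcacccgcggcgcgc
Ech1: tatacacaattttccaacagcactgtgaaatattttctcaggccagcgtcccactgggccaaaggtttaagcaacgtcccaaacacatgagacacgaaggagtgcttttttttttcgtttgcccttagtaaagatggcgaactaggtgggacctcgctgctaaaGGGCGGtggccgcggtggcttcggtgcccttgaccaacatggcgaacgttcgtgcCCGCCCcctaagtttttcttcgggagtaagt

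The motifs were the GC box GGGCGG, the CCAAT box CCAAT, the TATA box TATAAA, the nuclear receptor core site AGGTCA, the oestrogen-related receptor element TCAAGGTCA and the PPAR direct repeat AGGTCANAGGTCA; the last 2 contain the core site. Each was searched on both strands in 300 bases, 250 before and 50 after the start, and 24 of the 31 members matched an entry. The GC box was in 18 of the 24, or 75%, against 35.7% of all 32851 promoters in the table. The CCAAT box was in 10 of 24 (41.7%, all promoters 37.4%), the core site in 3 of 24 (12.5%, all promoters 16.3%), namely Acadm, Acadvl and Cpt1a, and the TATA box in 0 of 24 (all promoters 13.6%). Neither longer element was in any of the 24, and they were in 0.423% and 0.0396% of all promoters. The units differ: members were counted as genes with a match in any of their entries. The shares of all promoters are of single entries, 32851 for 27025 gene symbols. In the sequences shown, Cpt1a has 2 GC boxes, a CCAAT box and a core site, Ech1 has 2 GC boxes, and Pdk4 has a CCAAT box on the opposite strand. A match describes letters and does not show binding.

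The comparison of mLN with pLN asked whether the stroma of nodes draining the gut differs in these genes from that of peripheral nodes. None of the 31 genes passed the threshold (limma, Benjamini-Hochberg adjusted p below 0.05 over all genes), whereas 1.05% of all genes tested did, 0.776% higher and 0.276% lower in mLN. The lowest adjusted p was 0.244, for Acaa2, which was also the only member with an unadjusted p below 0.05; 7.80% of all genes tested had one in the higher direction and 6.88% in the lower. Both mLN arrays lay above both pLN arrays for 10 members (32.3%, all genes 20.6%): Cpt1a, Hadha, Acaa2, Acat1, Decr1, Etfb, Ehhadh, Acaa1a, Ech1 and Pdk4. Both lay below for 3 members (9.68%, all genes 25.0%), Acads, Ppard and Ppargc1b, and the arrays of the nodes overlapped for the other 18.

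Most differences were small. The median difference, mLN minus pLN, was 0.02 log2 units over the 31 genes and -0.03 over all genes tested. In 19 members the mean difference was within 1.2-fold (61.3%, all genes 60.9%), and in 2, Acaa2 and Pdk4, it was over 1.5-fold (6.45%, all genes 16.3%). By role, the median was 0.01 for the carnitine shuttle, 0.04 for the mitochondrial enzymes, 0.19 for the peroxisomal enzymes and -0.30 for the regulators. Neither experiment alone showed the regulators' value: their median ratio was 0.05 log2 in experiment 1 and -0.05 in experiment 2. The -0.30 is the value of Ppara, which was 0.02 without the pLN array of experiment 1. The signs depended on the background: with normexp correction on the local spot background, which moved the median of all genes to 0.38 log2, 15 of the 31 differences changed sign, among them those of Cpt2, Acat1, Etfb, Acaa1a, Ppard and Ppargc1b. Acaa2, Pdk4, Cpt1a, Ech1, Decr1, Ucp2, Ehhadh and Hadha were higher in mLN, and Acads and Hadhb lower, under all 14 alternatives, although under that correction Cpt1a (0.26), Ech1 (0.14), Decr1 (0.33), Ucp2 (0.19) and Hadha (0.13) lay below the median of all genes.

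In the carnitine shuttle, Cpt1a, the liver-type enzyme that sets the rate of entry, had the largest positive difference. Its level was 3.21 in pLN and 3.87 in mLN of experiment 1, and 2.43 in pLN and 4.12 in mLN of experiment 2. Both mLN arrays were above both pLN arrays, and the gap was wider in experiment 2, at 1.70-fold, than in experiment 1, at 1.2-fold. The mean difference was 0.52 ± 0.19 log2 (SE, n = 2 arrays per node, limma adjusted p = 0.344), a 1.43-fold ratio with a 95% interval from 0.998 to 2.05. Its main probe, at chr19:3385374-3385433 on mm8, was printed in 10 spots whose coefficient of variation was 2.28% to 5.67% by array. A second Cpt1a probe did not keep the direction: its levels of 0.714 in pLN and 0.611 in mLN gave a log2 ratio of -0.23 in experiment 1, and 0.441 and 0.771 gave 0.81 in experiment 2.

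Cpt1b, the isoform of muscle and brown fat, was dim and set apart by 1 array. Its level was 0.119 in pLN and 0.0660 in mLN of experiment 1, and 0.0445 in pLN and 0.0429 in mLN of experiment 2. The pLN array of experiment 1 was the highest, and the mean difference of -0.45 ± 0.54 log2 had an adjusted p of 0.794 (limma). Without that array the difference was 0.26 log2, of the opposite sign. A second Cpt1b probe was also highest there, at 0.0845, and was well above background on 3 of the 4 arrays.

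The same pLN array carried the highest levels of 4 brown-fat genes, Ucp1, Cidea, Cox8b and Cox7a1, but not of Dio2, which was at 0.0392 there, 0.0127 on the other pLN array and 0.0443 and 0.0462 in mLN. Ucp1, the uncoupling protein of brown fat, was at 2.56 there and at 0.132 in pLN of experiment 2. On the mLN arrays it did not reach well above background, so the pLN mean was at least 63.0-fold higher (limma adjusted p = 0.122). The dim group's limit in that bound is the lowest signal well above background on each array. The bound holds for the main background and for the mean of 2 unlike pLN arrays. With the deposited value table the log2 difference, mLN minus pLN, was -5.86. It was -4.20 with normexp given 1 background for each array and -2.23 with normexp on the local spot background. Cidea, a lipid droplet protein, was at 3.91 on that pLN array and 0.0824 to 0.319 on the other 3 arrays. For Cox8b, a cytochrome oxidase subunit of muscle and brown fat, the values were 5.53 against 0.128 to 0.366, and for its partner Cox7a1 1.72 against 0.248 to 0.315. The part of these cells in the Cpt1b and Ppara values was not tested.

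**Figure D1:**
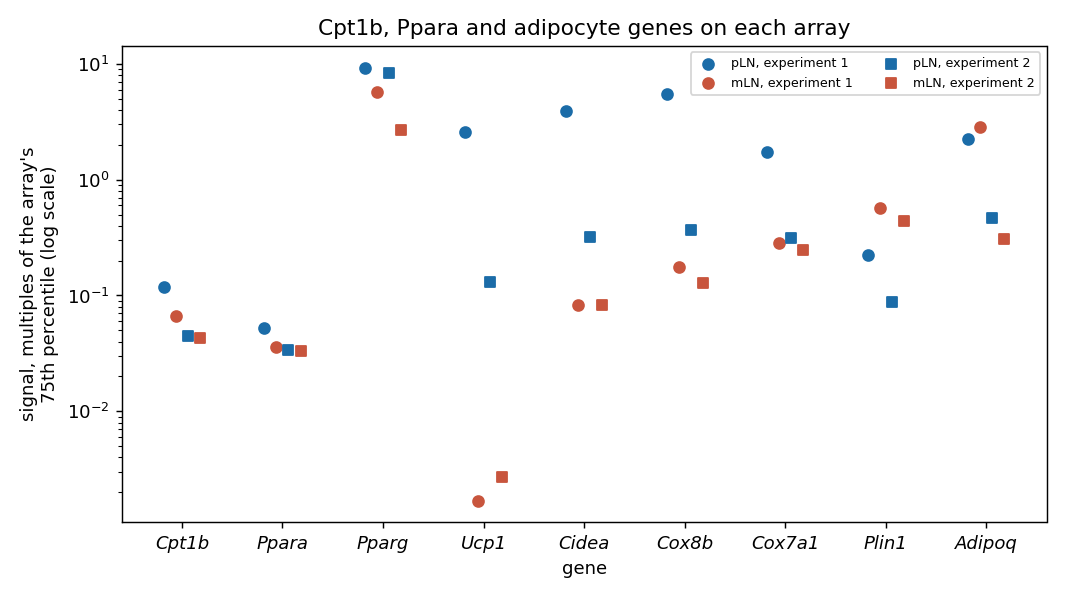
Signal of Cpt1b, Ppara, Pparg and 6 adipocyte genes on each array, in multiples of the array's 75th percentile on a log axis, with mLN in red, pLN in blue, experiment 1 as circles and experiment 2 as squares. The pLN array of experiment 1 is the highest of the 4 for Cpt1b, Ppara, Ucp1, Cidea, Cox8b and Cox7a1, while Plin1 is higher on both mLN arrays.

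The other shuttle genes were close to equal or changed sign with the experiment. Crat, which exchanges acetyl groups between carnitine and CoA, was at 1.28 and 1.25 in pLN and 1.27 and 1.24 in mLN, a ratio of 0.993-fold with a 95% interval from 0.775 to 1.27. Slc25a20, the carrier of the inner membrane, was at 3.12 and 2.59 in pLN and 3.25 and 2.56 in mLN; its experiments differed more than its nodes. Cpt2 was at 5.66 and 4.55 in pLN and 6.25 and 5.03 in mLN, 1.10-fold and 1.11-fold higher in mLN in the respective experiments, but lower in experiment 2 in both nodes, so the groups overlapped.

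Slc22a5, the plasma membrane transporter that takes up carnitine, went in opposite directions. It was at 1.53 in pLN and 1.09 in mLN of experiment 1, and 1.12 in pLN and 1.4 in mLN of experiment 2. Its log2 ratios were -0.49 and 0.31, and a second probe gave -0.62 and 0.34. Both probes therefore showed the same reversal between experiments, and the mean difference was -0.09 ± 0.23 log2 (limma adjusted p = 0.925).

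Among the mitochondrial enzymes Acaa2 stood apart in size. Acaa2 is the thiolase of the matrix that cleaves medium-chain 3-ketoacyl-CoA at the end of each round. Its level was 13.2 in pLN and 23.3 in mLN of experiment 1, and 10.3 in pLN and 17.3 in mLN of experiment 2. Both mLN arrays were above both pLN arrays, by 1.77-fold and 1.67-fold within the experiments. The mean difference was 0.78 ± 0.23 log2, a 1.72-fold ratio with a 95% interval from 1.12 to 2.64 that is not adjusted for the number of genes (limma adjusted p = 0.244). The probe was printed in 10 spots, and within each array these varied by 2.08% to 6.11% (coefficient of variation). The highest Acaa2 spot of any pLN array, 24377 units of unscaled processed signal, was below the lowest spot of any mLN array, 26612. The spots of an array measure the same RNA and are not replicates of a node, so they add no weight to the difference between nodes.

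The first step of each round is taken by acyl-CoA dehydrogenases that differ in the chain length they prefer. Acadvl, for very long chains, was at 5.0 and 4.64 in pLN and 4.99 and 4.56 in mLN, a ratio of 0.991-fold (95% interval 0.757 to 1.30). Acadm, for medium chains, was at 8.60 and 7.55 in pLN and 9.12 and 7.72 in mLN. Acadl, for long chains, was at 5.12 and 4.39 in pLN and 4.45 and 4.41 in mLN, with a single higher array, that of pLN in experiment 1. Only Acads, for short chains, had nodes that did not overlap: it was at 1.37 and 1.4 in pLN and 1.32 and 1.03 in mLN. The mLN array of experiment 2 was the low one, and the mean difference was -0.25 ± 0.18 log2 (limma adjusted p = 0.623).

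The trifunctional protein, which carries out the middle steps and the cleavage for long chains, was near equal in both of its subunits. Hadhb, the β subunit, was at 14.7 and 13.7 in pLN and 13.8 and 12.3 in mLN, and the groups overlapped. Hadha, the α subunit, was at 0.902 and 0.872 in pLN and 0.981 and 0.902 in mLN, a ratio of 1.06-fold with a 95% interval from 0.818 to 1.38. Its mLN arrays were above its pLN arrays only in the last digits, since the lower mLN and the higher pLN array were both at 0.902. A second Hadha probe, named from a cDNA clone, gave log2 ratios of 0.03 and -0.07, and the remaining one was well above background on 2 arrays and did not enter. Hadh, which acts on shorter chains, was at 9.82 and 8.54 in pLN and 9.32 and 8.64 in mLN.

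Acat1, a thiolase that also serves ketone body metabolism, was at 3.02 and 3.32 in pLN and 3.68 and 3.78 in mLN. Its mean difference of 0.24 ± 0.14 log2 did not pass the test (limma adjusted p = 0.557). The auxiliary enzymes for unsaturated fatty acids differed from one another: Eci1, the isomerase, was at 12 and 10.7 in pLN and 12.2 and 11.2 in mLN. Decr1, the reductase, was at 0.754 in pLN and 0.804 in mLN of experiment 1, and 0.644 in pLN and 0.979 in mLN of experiment 2. Most of its difference, 0.35 ± 0.18 log2 (limma adjusted p = 0.493), came from experiment 2, in which the ratio was 1.52-fold against 1.07-fold in experiment 1. A second Decr1 probe gave log2 ratios of 0.00 and 0.53, the same split.

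The electron transfer flavoprotein has 2 subunits, and their values differed. Etfb, the β subunit, was at 16.6 and 15.0 in pLN and 20.9 and 18.2 in mLN, with both mLN arrays higher, by 1.26-fold and 1.21-fold. Etfa, the α subunit, was at 15.6 and 15.1 in pLN and 16.3 and 14.9 in mLN, and its groups overlapped. The mean differences were 0.31 ± 0.16 log2 for Etfb (limma adjusted p = 0.484) and 0.02 ± 0.14 for Etfa (adjusted p = 0.978), and the difference between the subunits was not tested. Etfdh, which passes the electrons on to ubiquinone, was at 5.73 and 5.42 in pLN and 6.31 and 5.14 in mLN, with ratios in opposite directions.

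Of the 4 peroxisomal enzymes, 3 were higher on both mLN arrays (all genes 20.6%), without passing the test. Among 16 other peroxisomal genes this held for 4, and their median difference was -0.03 log2, with 9 of them lower in mLN on average. Ech1, an isomerase for unsaturated chains found in peroxisomes and mitochondria, was at 18.4 and 14.3 in pLN and 24.4 and 21.3 in mLN. The ratios were 1.32-fold and 1.49-fold, and the mean difference was 0.49 ± 0.19 log2, a 1.41-fold ratio with a 95% interval from 0.981 to 2.01 (limma adjusted p = 0.367). Ehhadh, the bifunctional enzyme of the peroxisome known as a PPARα target, was at 0.221 and 0.242 in pLN and 0.249 and 0.284 in mLN. Its ratios of 1.13-fold and 1.17-fold were alike in the experiments, and its mean difference was 0.20 ± 0.15 log2. Hsd17b4, the other bifunctional enzyme, was at 10.4 and 9.08 in pLN and 9.64 and 8.66 in mLN, lower in mLN by 0.09 ± 0.16 log2 on average with overlapping groups.

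Acaa1a, the peroxisomal thiolase, was at 11 and 11.8 in pLN and 13.0 and 12.8 in mLN. It had 3 probes with mean differences of 0.18, 0.10 and 0.13 log2. The second of these changed direction, with log2 ratios of 0.24 in experiment 1 and -0.04 in experiment 2. The files list the third probe under both Acaa1a and its near-identical copy Acaa1b, so signal from the copies cannot be separated there.

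The single Ech1 probe, on which the Ech1 values rest, is shown in lower case throughout. It is 60 bases long with 1 reading frame free of stop codons, and on mm8 it covers chr7:28539997-28540157, a span of 161 bases that is longer than the probe.
Ech1: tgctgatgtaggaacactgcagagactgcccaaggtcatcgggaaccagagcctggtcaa

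Most of the pancreatic acinar, mesothelial and smooth muscle markers given above were higher on both mLN arrays, as were Acaa2, Cpt1a, Ech1 and Etfb. The part of those cells in the differences of these genes was not tested.

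**Figure D2:**
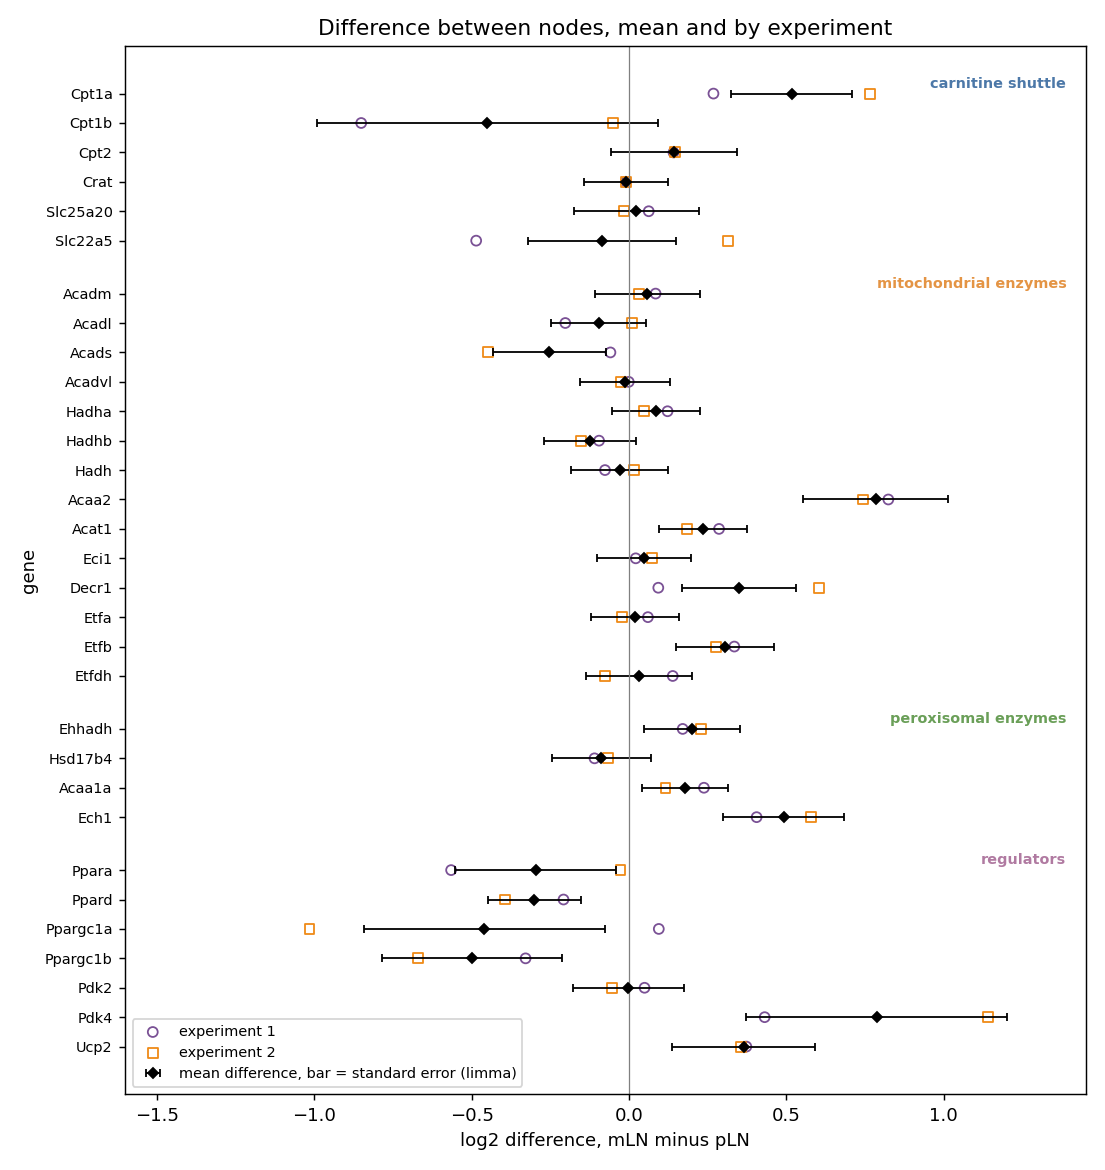
Difference between nodes for each gene, as log2 mLN minus pLN on the horizontal axis and genes by role on the vertical axis; diamonds are the mean difference with its standard error from limma (2 arrays per node), open circles are experiment 1 and open squares experiment 2. Acaa2 has both experiments near 0.8, Slc22a5 and Ppargc1a have experiments on opposite sides of 0, and most enzymes lie close to 0.

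Among the regulators the nuclear receptors and coactivators were mostly dim. Ppara, the receptor for fatty acids that drives oxidation genes in liver, was at 0.0527 in pLN and 0.0356 in mLN of experiment 1, and 0.0339 in pLN and 0.0332 in mLN of experiment 2. The pLN array of experiment 1 was the high one, as for Cpt1b, and the difference was -0.30 ± 0.26 log2 with it and 0.02 without it. Its probe was printed in 10 spots and 1 of them was flagged as an outlier and left out on each of 3 arrays. The highest of these flagged spots, 261.8 units, stood against a median of 90.2 over the spots of that array.

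Ppard, a receptor of the same family active in many tissues, was at 0.0522 and 0.0519 in pLN and 0.0452 and 0.0395 in mLN. Both mLN arrays were lower, with a mean difference of -0.30 ± 0.15 log2 (limma adjusted p = 0.469). Ppargc1a, the coactivator PGC-1α, was at 0.0643 in pLN and 0.0687 in mLN of experiment 1, and 0.0667 in pLN and 0.0330 in mLN of experiment 2. The mLN array of experiment 2 alone was low; the difference was -0.46 ± 0.38 log2 with it and 0.07 without it. A second probe gave the opposite pattern, with log2 ratios of -0.17 and 0.57. Ppargc1b, the coactivator PGC-1β, was at 0.318 and 0.506 in pLN and 0.253 and 0.318 in mLN. Its difference was -0.50 ± 0.29 log2 (limma adjusted p = 0.536), and a second probe gave -1.01 and -0.92 in the experiments, lower in mLN in both. The remaining probe, well above background on 2 arrays, gave 1.39 and -0.96.

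Pdk4, the kinase that shuts down pyruvate dehydrogenase when fatty acids are burned, had the largest mean difference of all 31. It was at 3.86 in pLN and 5.21 in mLN of experiment 1, and 1.81 in pLN and 4.00 in mLN of experiment 2. Both mLN arrays were above both pLN arrays, but the mLN array of experiment 2 was only slightly above the pLN array of experiment 1. The ratios were 1.35-fold and 2.21-fold, and the mean difference was 0.79 ± 0.41 log2, with a 95% interval from -0.32 to 1.90 (limma adjusted p = 0.499). The related kinase Pdk2 was at 0.186 and 0.163 in pLN and 0.192 and 0.157 in mLN, a ratio of 0.999-fold with a 95% interval from 0.718 to 1.39.

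Ucp2, an uncoupling protein family member of the inner membrane, was at 2.86 and 2.20 in pLN and 3.70 and 2.82 in mLN. It was higher in mLN by 1.29-fold and 1.28-fold within the experiments. Its groups overlapped because both nodes were lower in experiment 2, and the mean difference was 0.36 ± 0.23 log2 (limma adjusted p = 0.575).

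**Figure D3:**
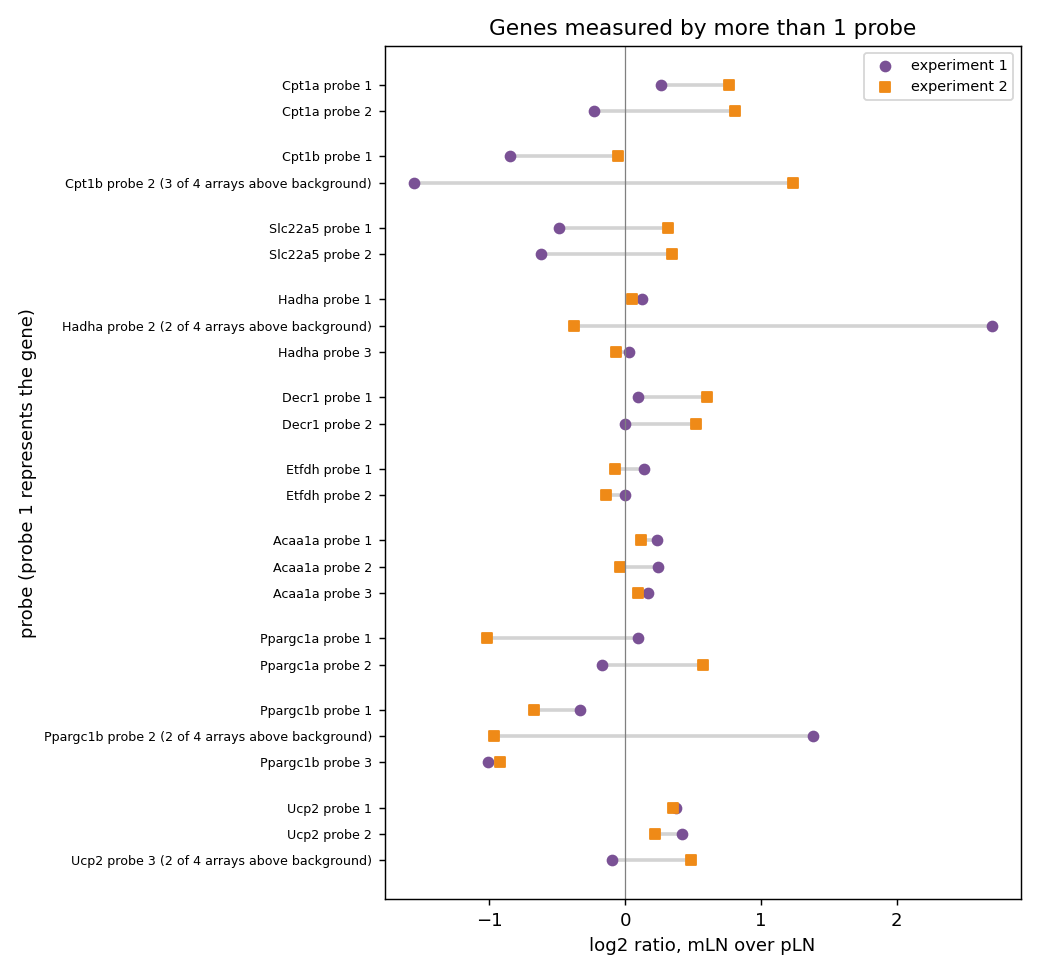
Log2 ratio of mLN over pLN in experiment 1 (purple circles) and experiment 2 (orange squares) for the 24 probes of the 10 genes with more than 1 probe, on the vertical axis; probe 1 represents the gene. The probes of Slc22a5, Decr1 and Ucp2 that were well above background on all 4 arrays lie close to one another, while those of Cpt1a and Ppargc1a differ in sign in at least 1 experiment.

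The experiments differed about as much as the nodes did: over the 31 genes the median size of the difference was 0.18 log2 between nodes and 0.16 between experiments (all genes 0.19 and 0.16). Of the 31 genes, 22 (71.0%) were lower in experiment 2 than in experiment 1 in both nodes, compared with 28.0% of all genes tested and 30.6% of 62 other genes of the pathway. The reverse, higher in experiment 2 in both nodes, held for 3 members (9.68%, all genes 28.7%): Acat1, Ehhadh and Ppargc1b. By role, 11 of the 14 mitochondrial enzymes, 4 of the 6 shuttle genes, 5 of the 7 regulators and 2 of the 4 peroxisomal enzymes were lower in experiment 2 in both nodes. The median change, experiment 2 minus experiment 1, was -0.15 log2 in mLN and -0.19 in pLN over the members, and -0.01 and 0.01 over all genes tested. The count was 18 to 22 of 31 under the other scalings, backgrounds and filters, with 15.2% to 29.8% of all genes. These counts have no test, since each experiment has 1 array per node.

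The changes between experiments reached beyond 0.5 log2 in a few members. Cpt1b changed by -1.42 log2 in pLN and -0.62 in mLN, and Pdk4 by -1.09 in pLN and -0.38 in mLN. Ppara changed by -0.64 in pLN and -0.10 in mLN, and Ppargc1a by 0.05 in pLN and -1.06 in mLN. Ppargc1b rose, by 0.67 in pLN and 0.33 in mLN. Acaa2, which stayed within 0.5, changed by -0.35 in pLN and -0.43 in mLN. The difference between nodes was larger than the mean change between experiments in 14 of the 31 members (45.2%, all genes 56.8%). The summed levels of the adipocyte and pancreatic acinar markers were also lower in experiment 2 in both nodes and those of the fibroblastic reticular markers were higher, as given above, and their part in these changes was not tested.

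**Figure D4:**
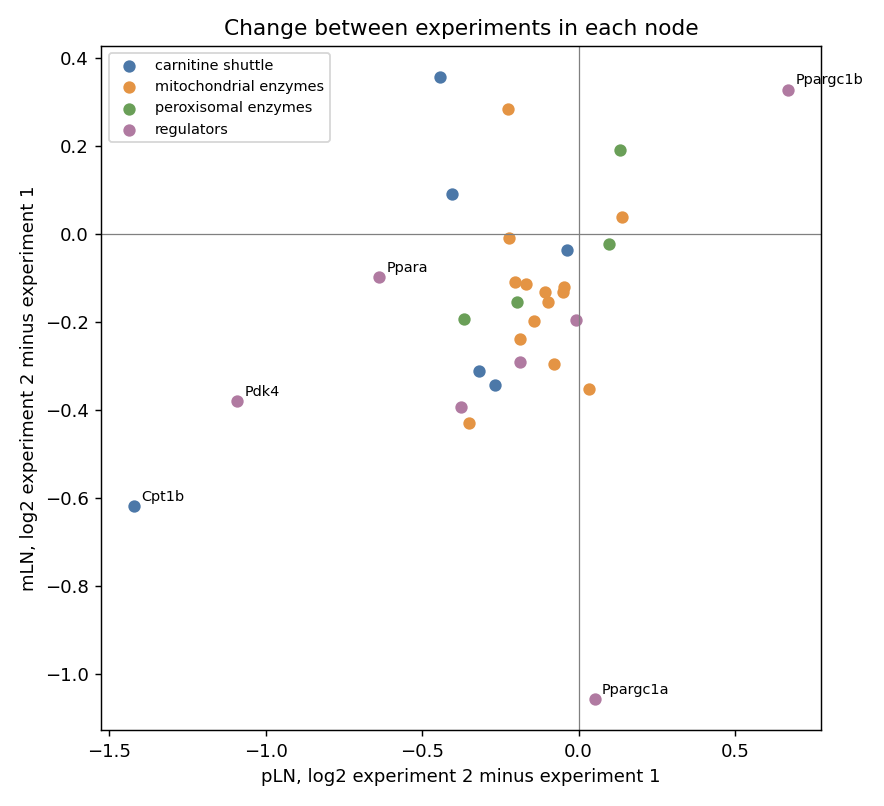
Change from experiment 1 to experiment 2 for each of the 31 genes, as the log2 difference in pLN (horizontal axis) and in mLN (vertical axis), coloured by role; each point rests on 1 array per node and experiment. Of the points, 22 lie in the lower left quadrant, and Cpt1b and Pdk4 have the largest decreases in pLN.

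Other genes of the pathway were read from a list of 64, of which 62 were tested. None passed the threshold in either direction (all genes 1.05%). At an unadjusted p below 0.05 (limma), 5 of the 62 were higher in mLN (all genes 7.80%) and 2 lower (all genes 6.88%). Their median difference was 0.05 log2. Acsl1, which activates long-chain fatty acids, was at 2.61 and 1.83 in pLN and 2.11 and 1.61 in mLN. Echs1, the short-chain enoyl-CoA hydratase, was at 7.85 and 7.71 in pLN and 8.14 and 8.86 in mLN, a ratio of 1.09-fold (95% interval 0.843 to 1.41). In the peroxisome, the carnitine transferase Crot was at 4.13 and 3.67 in pLN and 4.10 and 4.09 in mLN, and the nodes overlapped.

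Among the 24 tested regulators and targets of that list, 12 were higher and 12 lower in mLN on average, with a median of 0.01 log2, and 4 are given here. Angptl4, a secreted inhibitor of lipoprotein lipase, was at 69.7 and 31.3 in pLN and 82.0 and 48.2 in mLN, and the lipid droplet protein Plin2 at 7.53 and 6.92 in pLN and 9.16 and 8.66 in mLN. Pparg, the receptor of fat cell formation, was at 9.29 and 8.34 in pLN and 5.71 and 2.66 in mLN, both mLN arrays lower, with a difference of -1.17 ± 0.40 log2 (limma adjusted p = 0.301). Esrra, which binds the oestrogen-related receptor element, was at 0.910 and 0.864 in pLN and 0.667 and 1.12 in mLN and changed direction with the experiment.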

How the data were processed

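RNA of CD45- cells was measured on 4 one-colour arrays, on 1 slide in 1 scan. Per the file headers, the authors extracted spot intensities with Agilent Feature Extraction, which the submitters' processing notes give as version 9.5.3.1; the processed signal is background-subtracted and was deposited unscaled, and probe positions are on mm8. Control and outlier-flagged spots were dropped, spots of a probe averaged (19 probes lost all spots), and the log2 signal was set relative to each array's 75th percentile. Per the file headers, other columns deposited by the authors are spot flags. A probe entered (31883 did) where the mLN pair or the pLN pair of arrays was well above background, and the brightest entering probe represented a gene. Names came from accession (24375 probes), symbol (6301) or synonym (2426) through the GRCm38.p6 RefSeq table, or were kept as in the file (8072). All 31 members entered and were well above background on all 4 arrays.

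Nodes were compared with limma 3.58.1 (lmFit, eBayes, R 4.3.3; two-sided) and no block; p-values were adjusted by Benjamini-Hochberg over all 21392 genes; intervals use 4.35 degrees of freedom. An exact permutation of 2 against 2 cannot go below p = 0.333. The labels number the experiments, so samples are paired by experiment; deviations from the node means correlated at r = 0.25. The fit was tested on simulated data. All 31 members are named, with genes from a separate list of 64 other pathway genes, some of which are not reported here. The members, lists and tests were chosen with earlier results of these data known. The deposited value table holds the processed signal times 0.862 to 0.890 by array, with the 75th percentile at 1500 and a floor of 15 (column medians 161 to 172); it is linear and not centred by gene. Alternatives were another background, scaling, filter, probe rule, variance trend, the block, that table and leaving out each array.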

Additional observations from a re-analysis of the deposited data

How the results depend on the processing

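No member passed the threshold under any of the 14 alternatives, in which the lowest adjusted p of a member was 0.118 (Acaa2, limma with the experiment as a replicate block, which changed no call of a member and gave 333 genes called over all genes). The count over all genes, 225, became 0 with normexp on the local spot background (565 at an unadjusted p below 0.05), 354 with median scaling, 44 without a filter on dim probes, 441 with a variance trend and 355 with normexp given 1 background for each array, an alternative chosen after seeing the data. Leaving out an array gave 0 to 190 calls: 0 without either pLN array (1877 at an unadjusted p below 0.05 without that of experiment 1, 2297 without that of experiment 2). Normexp on the local spot background moved the median of all genes to 0.38 log2 and the medians of the members to -0.034 for all 31, -0.092 for the shuttle, -0.25 for the mitochondrial enzymes, 0.0021 for the peroxisomal enzymes and 0.73 for the regulators. It turned the sign of 15 differences, to these log2 values: Cpt1b 1.01, Cpt2 -0.081, Slc25a20 -0.21, Acadm -0.22, Acat1 -0.034, Eci1 -0.27, Etfa -0.27, Etfb -0.026, Etfdh -0.15, Acaa1a -0.13, Ppara 1.29, Ppard 1.33, Ppargc1a 1.17, Ppargc1b 0.10 and Pdk2 0.73. The regulators' median was -0.13 with the mean of a gene's probes and -0.092 with 1 background for each array. The sign also turned for Crat (0.0017) and Pdk2 (0.0095) with median scaling, Etfa (-0.018) with quantile normalization, Etfdh (-0.018) with the mean of its probes, and Slc25a20 (-0.0045) and Hadh (0.0060) with 1 background for each array. Leaving out each array moved the median over -0.048 to 0.13 for all members, -0.069 to 0.21 for the shuttle, -0.055 to 0.13 for the mitochondrial enzymes, 0.13 to 0.25 for the peroxisomal enzymes and -0.34 to 0.069 for the regulators. The sign of 16 members turned when 1 array was left out, over these ranges: Cpt1b -1.16 to 0.26, Cpt2 -0.014 to 0.30, Crat -0.028 to 0.0086, Slc25a20 -0.15 to 0.20, Slc22a5 -0.31 to 0.14, Acadm -0.062 to 0.18, Acadl -0.21 to 0.014, Acadvl -0.079 to 0.053, Hadh -0.13 to 0.071, Eci1 -0.035 to 0.13, Etfa -0.048 to 0.085, Etfdh -0.12 to 0.18, Hsd17b4 -0.19 to 0.0096, Ppara -0.61 to 0.023, Ppargc1a -0.99 to 0.069, Pdk2 -0.15 to 0.14. The cause of these changes was not tested. With 2 arrays per node, their number limits the precision.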

Other observations

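Fgf21 and Bdh1 showed mean differences larger than that of any of the 31 genes, and are named here after their values were seen. Fgf21, a fasting hormone under PPARα control in liver, was at 0.0652 in pLN and 0.185 in mLN of experiment 1, and 0.0519 in pLN and 0.264 in mLN of experiment 2. It was higher in mLN by 2.84-fold and 5.09-fold, with a mean difference of 1.93 ± 0.24 log2 (limma adjusted p = 0.0652). Bdh1, which interconverts the ketone bodies acetoacetate and β-hydroxybutyrate, was at 0.272 and 0.255 in pLN and 0.626 and 0.517 in mLN. Its ratios were 2.30-fold and 2.03-fold and its mean difference 1.11 ± 0.16 log2 (limma adjusted p = 0.0895). Over the 14 alternatives the adjusted p was 0.0348 to 0.690 for Fgf21 and 0.0491 to 0.690 for Bdh1. It was lowest for both with a trend of the variance on intensity and highest with normexp on the local spot background. For Fgf21 it was also below 0.05 with the mean of its probes (0.0477, Bdh1 0.232) and with normexp given 1 background for each array (0.0478, Bdh1 0.0597). Without the pLN array of experiment 1 it was 0.240 and 0.369. Without the pLN array of experiment 2 it was 0.272 and 0.335. The summed level of the pancreatic acinar markers was 1170 and 420.5 in mLN against 24.6 and 1.27 in pLN, and their part in these differences was not tested.

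Cpt1c, the brain-type relative of Cpt1a, was at 0.340 and 0.320 in pLN and 0.477 and 0.497 in mLN, 0.56 ± 0.14 log2 higher in mLN (limma adjusted p = 0.184). Pdk1 was at 0.511 and 0.488 in pLN and 0.686 and 0.710 in mLN, 0.48 ± 0.14 log2 higher (adjusted p = 0.226). Both mLN arrays lay above both pLN arrays for Cpt1a, Cpt1c, Pdk1 and Pdk4 (all genes 20.6%), while Cpt1b, Pdk2 and Pdk3 overlapped. None of these genes passed the test, and the second Cpt1a probe did not keep the direction. Like Fgf21 and Bdh1, the genes Cpt1c, Pdk1, Pdk3 and Plin5 are named here after their values were seen. Pdk3 was at 1.10 and 1.37 in pLN and 1.35 and 1.24 in mLN. Plin5, which coats lipid droplets in tissues that burn fat, was at 0.153 and 0.0764 in pLN and 0.0683 and 0.0513 in mLN. Its difference of -0.87 log2 (limma adjusted p = 0.429) turned to 0.59 with normexp on the local spot background.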
